A study of Rattus norvegicus with 5 samples.

Results

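The fibrous zone (FZ) of the rat mandibular condylar cartilage (MCC), the thin layer that faces the joint, was compared with the mature chondrocyte zone (MZ) deeper in the same cartilage. The comparison takes the FZ value minus the MZ value for each of 31042 probe sets, which are all of the 31099 on the array other than 57 control probe sets. It rests on 2 of the 5 arrays of the series. Without a further array of either zone no difference can be set against a spread between replicates, and neither tests nor p-values are reported. The RNA came from Sprague-Dawley male rats, wild type, 5 weeks old and given no treatment. The design text of the series names a single rat, and cells of 30 frozen sections of 7 µm were pooled for each zone per the labels, so 1 array stands for a pool of captured cells. The methods of the study give a larger number of sections for FZ than for the other zones, so the FZ and MZ pools may not have been of equal size. The other 3 groups, with 1 array each, were the proliferative zone (PZ) between FZ and MZ, the hypertrophic zone (HZ) below MZ, and the femoral condylar cartilage (FCC) as a reference tissue. All deposited values are log2 values relative to the median of a probe set over the 5 arrays. Levels cannot be read from such values: 0 marks the middle array and not an absent transcript. Their precision is limited by the number of arrays.

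The condylar cartilage of the jaw is a fibrocartilage. Its surface is a fibrous tissue of flattened fibroblast-like cells that lay down type I collagen and resist shear and tension, and below a layer of dividing progenitors lie chondrocytes that make a type II collagen and aggrecan matrix. These chondrocytes mature, enlarge and give way to bone, so a step from FZ to MZ crosses from a tendon-like tissue into cartilage proper.

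Among the gene lists examined, those with the highest and the lowest median difference were lists of matrix genes. Tendon and fibrous matrix genes, led by Tnmd, Dpt and Col14a1, were higher in FZ, and type II and type IX collagen, Clec3a and Cnmd were higher in MZ. Counting from 2 on the log2 scale, a 4-fold difference, 192 probe sets were higher in FZ (0.619% of all) and 73 were lower (0.235% of all). Over all probe sets the median difference was -0.0050, and 84.9% lay within 0.5 of 0. The differences ran from -6.16 to 5.65, and the 1st and 99th percentiles were -1.34 and 1.58. Of the 192 probe sets higher in FZ, 163 carry 1 gene symbol and stand for 148 genes, while 29 are not listed in the annotation. Of the 73 lower in FZ, 55 stand for 52 genes, 17 are not listed and 1 carries several symbols. At a difference of at least 1, which takes in those past 2, the counts were 727 higher and 773 lower, an about even total. Since more of those past 2 were higher in FZ, those between 1 and 2 were more often lower in FZ in the deposited values. With the arrays shifted to equal means of the added hybridization controls, 892 were at least 1 higher and 536 lower, so the even split at this size holds for the deposited scaling. The other pairs of zones, which share arrays with this comparison, did not all split the same way. FZ was at least 2 higher than PZ in 146 probe sets and lower in 43, and higher than HZ in 294 and lower in 93. PZ was at least 2 higher than MZ in 98 and lower in 247, so that there the deeper zone held more of the higher values. MZ was at least 2 higher than HZ in 46 and lower in 3.

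**Figure D1:**
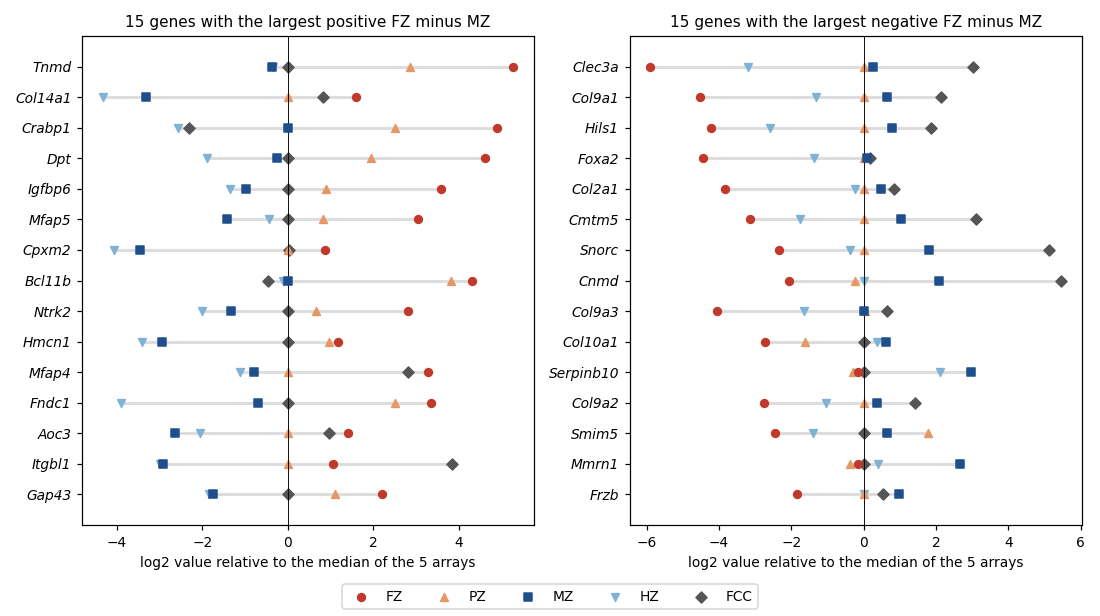
Log2 values on the 5 arrays for the 15 genes named in the annotation with the largest positive (left) and the 15 with the largest negative FZ minus MZ difference (right), each at its probe set with the largest difference and with a grey bar over the range of the 5 arrays. FZ (red circles) lies to the right of MZ (blue squares) in every gene on the left, and PZ (orange triangles) lies between FZ and MZ or level with one of them in all of these 15. Probe sets without a single symbol are left out, 2 of which differed by more than the last gene on the left and 6 by more than the last on the right.

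The other arrays show on which side a difference lay. Among the 192 probe sets higher in FZ, PZ lay between FZ and MZ in 177 (92.2%). These probe sets were chosen for a wide gap between FZ and MZ, which leaves room for a further array between them, so this and the counts that follow are a description. The step from PZ to MZ was the larger in 129 of them and the step from FZ to PZ in 63, so PZ lay nearer to FZ more often than to MZ. FZ was the highest of the 5 arrays in 149, and HZ lay below both FZ and MZ in 142. Their medians were 1.81 in FZ, 0.41 in PZ, -0.79 in MZ, -1.08 in HZ and 0 in FCC. Among the 73 lower in FZ, PZ lay between in 51 (69.9%), FZ was the lowest array in 58, and the median was -1.68 in FZ and 1.01 in MZ. Here the step from FZ to PZ was the larger in 40 and the step from PZ to MZ in 33, the other way round from the 192. HZ was below MZ in most of these 73 too, since it lay strictly between FZ and MZ in 61 and below both in 3.

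**Figure D2:**
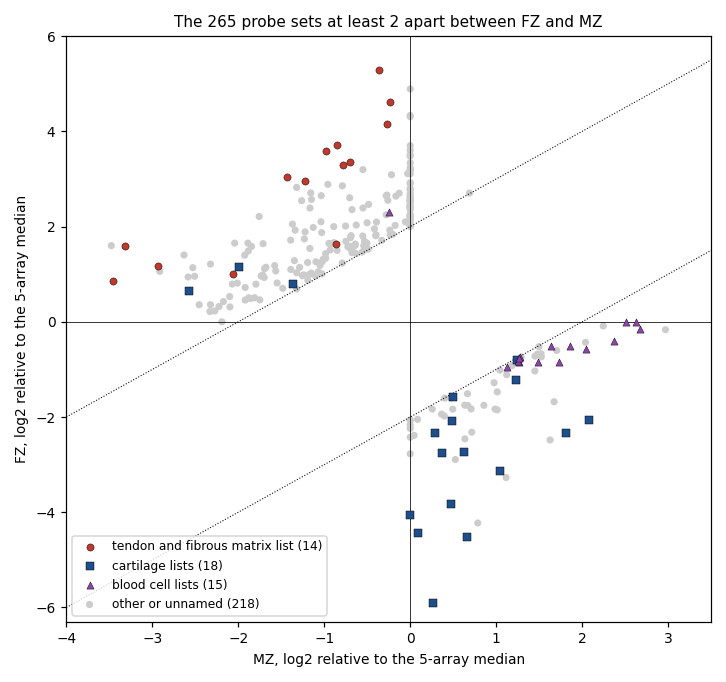
FZ value against MZ value, both log2 relative to the median of the 5 arrays, for the 265 probe sets at least 2 apart; dotted lines mark a difference of 2, and colours mark the gene lists named in the key. At the lower right, genes of the cartilage lists lie at MZ values from 0 to 2.08 with FZ down to -5.90. Genes of the blood cell lists lie there at FZ values from -0.95 to 0 with MZ above 1. Genes of the tendon and fibrous matrix list lie on the upper left, at FZ from 0.87 to 5.29 and MZ from -3.45 to -0.24. Fibin, Zfp521 and Aqp1 are the members of the cartilage and blood cell lists on that side.

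Tnmd, tenomodulin, a membrane glycoprotein typical of tendon and ligament cells, had the largest positive difference. Its values were 5.29 in FZ, 2.86 in PZ, -0.37 in MZ, -0.35 in HZ and 0 in FCC, a difference of 5.65. FZ stood alone at the top, PZ was intermediate, and the other 3 arrays lay within 0.5 of each other. Dpt, dermatopontin, which binds decorin and helps collagen fibrils form, read 4.62 in FZ, 1.96 in PZ, -0.24 in MZ, -1.90 in HZ and 0 in FCC, a difference of 4.86, and its other probe set differed by 4.56. In both genes the values stepped down from FZ through PZ to MZ.

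Col14a1, a collagen that sits on the surface of type I fibrils, read 1.60 in FZ, 0 in PZ, -3.32 in MZ, -4.33 in HZ and 0.82 in FCC. Its difference of 4.91 came with low values in MZ and HZ more than with a high value in FZ. Its other probe set differed by 4.18 in another way, with 2.96 in FZ, 0 in PZ and -1.22 in MZ, so that the FZ side held the larger part. Hmcn1, hemicentin 1, an extracellular protein of the immunoglobulin superfamily, had the form of the first of these probe sets, at 1.17 in FZ, 0.97 in PZ, -2.94 in MZ, -3.40 in HZ and 0 in FCC, a difference of 4.11. Cpxm2, a carboxypeptidase-like secreted protein, differed by 4.32, with 0.87 in FZ and -3.45 in MZ, and its other probe set by 3.07, with 1.01 in FZ and -2.06 in MZ. In Hmcn1 and Cpxm2 MZ lay farther from the middle array than FZ did, whereas in Tnmd and Dpt FZ lay farther from it than MZ.

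Fndc1, a secreted protein with fibronectin type III domains, read 3.36 in FZ, 2.52 in PZ, -0.71 in MZ, -3.91 in HZ and 0 in FCC, a difference of 4.06. Igfbp6, which binds IGF-II in preference to IGF-I, read 3.60 in FZ, 0.91 in PZ, -0.98 in MZ, -1.35 in HZ and 0 in FCC. Its difference was 4.58, and 4.41 in its other probe set. Among 28 genes of tendon and fibrous matrix with a named probe set, 16 were at least 1 higher in FZ and 0 at least 1 lower, with a median of 1.07. Over all 14217 named genes, 367 (2.58%) were at least 1 higher, 391 (2.75%) at least 1 lower and the median was -0.0074, and after the same shift 454 were at least 1 higher and 274 lower. For genes of a list the probe sets were averaged. Scx, the transcription factor of tendon progenitors, differed by 1.04, Postn (periostin) by 1.06, Tnc (tenascin C) by 1.22 and Thbs2, an inhibitor of angiogenesis, by 1.95. In captured tissue, fewer cells of a type and less RNA per cell cannot be told apart, here and in all that follows.

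Not every gene of fibrous tissue was higher in FZ. Col1a1 and Col1a2, the chains of type I collagen, differed by -0.07 and by 0.00, with FZ at 0.00 and MZ within 0.1 of 0 for both. Dcn, decorin, differed by -0.08, Fbln1 by -0.21, Lox by -0.23 and Pdgfra, a receptor of mesenchymal cells, by -0.19. How abundant these transcripts were in either zone cannot be read from values without a level.

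**Figure D3:**
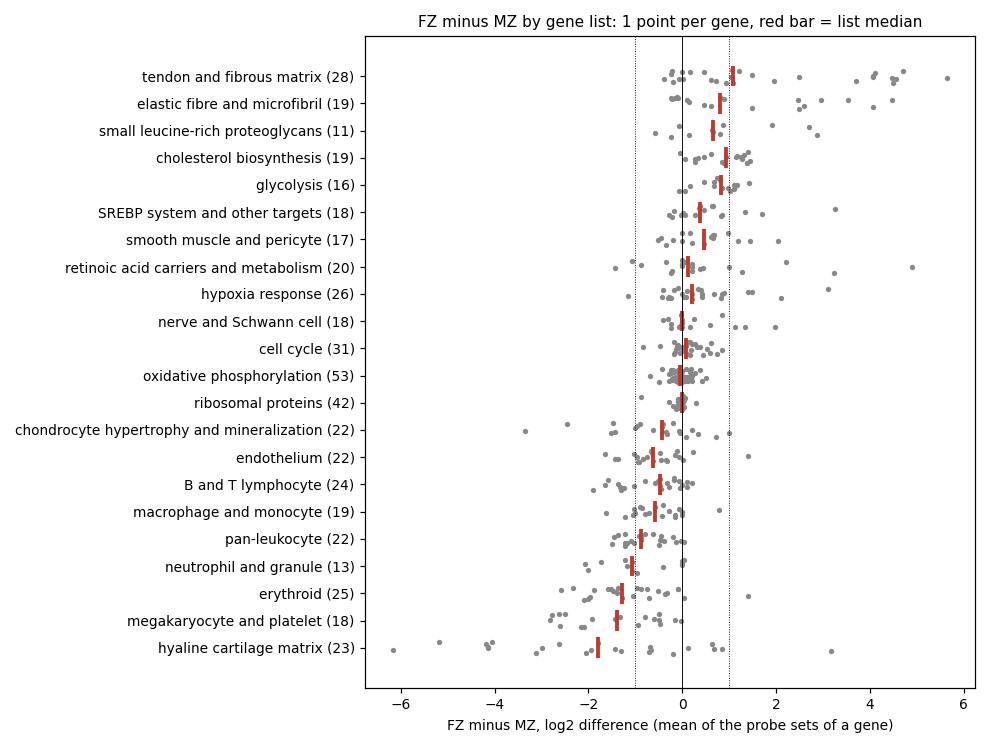
FZ minus MZ (log2) of each gene of 22 lists, 1 grey point per gene, with the number of genes in brackets, the list median as a red bar, and dotted lines at -1 and 1. The median runs from 1.07 for tendon and fibrous matrix to -1.80 for hyaline cartilage matrix, and oxidative phosphorylation and ribosomal protein genes lie close to 0.

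Genes of elastic fibres and their microfibrils formed a second group of matrix genes higher in FZ; this list was drawn up after the values were seen. Of 19 measured, 8 were at least 1 higher in FZ and 0 at least 1 lower, with a median of 0.81. Mfap5, which binds fibrillin, read 3.04 in FZ, 0.83 in PZ, -1.43 in MZ, -0.43 in HZ and 0 in FCC, a difference of 4.47. Mfap4 read 3.29 in FZ, 0 in PZ, -0.78 in MZ, -1.12 in HZ and 2.81 in FCC, a difference of 4.07, so that for this gene FCC was nearly as high as FZ. Fbn2 and Fbn1, the fibrillins, differed by 2.95 and 1.5, and Mfap2 by 2.59. Ltbp4 and Ltbp2, which bind fibrillin and, in the case of Ltbp4, latent TGF-β, differed by 3.54 and 2.46, and Ltbp1 and Ltbp3 by 0.81 and 0.09. Eln, elastin itself, differed by 0.47, Fbln5 by 0.15 and Emilin1 by -0.16.

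Small leucine-rich proteoglycans, which coat collagen fibrils, were split. Aspn, asporin, read 2.87 in FZ, 2.64 in PZ, 0 in MZ, -2.25 in HZ and -0.47 in FCC as the mean of its 2 probe sets, a difference of 2.87. Prelp, an anchor between matrix and basement membrane, differed by 2.71 and Fmod, fibromodulin, by 1.91. These 3 of 11 genes were at least 1 higher in FZ and 0 at least 1 lower, with a median of 0.65. Lum (lumican) and Omd (osteomodulin) differed by 0.14 and -0.59.

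Collagens lay on both sides. Of 41 chains with a named probe set, taken by symbol and not picked, 10 were at least 1 higher in FZ and 9 at least 1 lower, and the median was 0.00. The chains higher in FZ were Col14a1, Col8a2 (3.32), Col8a1 (2.41), Col15a1 (2.24), Col16a1 (2.19), Col6a2 (1.98), Col6a5 (1.65), Col6a1 (1.54), Col5a3 (1.43) and Col12a1 (1.09). Types VI, XII and XIV bind to or lie along fibrils, and type VIII forms hexagonal networks. Col8a2 read 1.4 in FZ, 0 in PZ, -1.93 in MZ, -4.0 in HZ and 0.82 in FCC, which put HZ far below all other arrays. The chains lower in FZ were Col9a1, Col9a3, Col10a1, Col9a2, Col2a1, Col27a1 (-1.80), Col25a1 (-1.53), Col11a2 (-1.43) and Col22a1 (-1.27). Types II, IX, XI and XXVII are collagens of cartilage fibrils, and type X is made by hypertrophic chondrocytes.

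**Figure D4:**
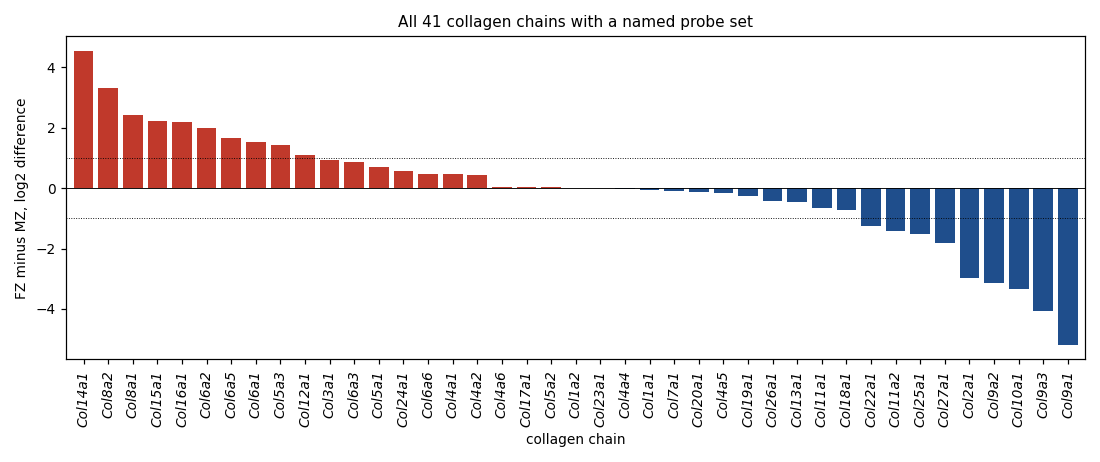
FZ minus MZ (log2 difference) of all 41 collagen chains, each the mean of its probe sets, sorted from the highest to the lowest, with dotted lines at 1 and -1. The bars run from 4.55 for Col14a1 to -5.19 for Col9a1, and the chains of type I collagen lie at 0.

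Of 19 enzymes that modify, cut or cross-link collagen, 3 were at least 1 higher in FZ and 1 at least 1 lower, with a median of 0.12. P4ha3, a subunit of prolyl 4-hydroxylase, read 3.34 in FZ, 3.51 in PZ, 0 in MZ, -0.63 in HZ and -0.08 in FCC, so FZ and PZ stood together above the rest. Loxl1, a cross-linking oxidase of elastic fibres, differed by 2.49 and Plod1, a lysyl hydroxylase, by 1.75. Loxl3 differed by -1.16.

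Genes of hyaline cartilage matrix were the group with the lowest median. Of 23 measured, 14 were at least 1 lower in FZ and 1 at least 1 higher, with a median of -1.80. Clec3a, a C-type lectin of cartilage, read -5.90 in FZ, 0 in PZ, 0.26 in MZ, -3.19 in HZ and 3.02 in FCC, a difference of -6.16 and the largest of either sign. Col9a1 read -4.53 in FZ, 0 in PZ, 0.66 in MZ, -1.33 in HZ and 2.13 in FCC, a difference of -5.19. In both genes FZ was lowest, HZ next, and PZ lay within 0.7 of MZ.

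Col2a1, the main collagen of cartilage, read -3.83 in FZ, 0 in PZ, 0.48 in MZ, -0.25 in HZ and 0.85 in FCC at the probe set with the largest difference, -4.31. Its other probe sets differed by -2.56 and -2.08, and both had FZ below PZ, MZ and HZ. They disagreed on FCC, which was the highest array at the former (1.55) and the lowest at the latter (-2.12). Col9a3 and Col9a2 differed by -4.07 and -3.13, so all 3 chains of type IX collagen were lower in FZ. Comp, cartilage oligomeric matrix protein, differed by -2.62 and Mia, a small secreted chondrocyte protein, by -2.04.

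Snorc, a membrane proteoglycan of chondrocytes, read -2.34 in FZ, 0 in PZ, 1.81 in MZ, -0.38 in HZ and 5.13 in FCC, a difference of -4.14. Cnmd, chondromodulin, an inhibitor of vessel growth, read -2.06 in FZ, -0.25 in PZ, 2.08 in MZ, 0 in HZ and 5.46 in FCC, also a difference of -4.14. Both were highest in FCC and second highest in MZ. Cnmd and Tnmd are the related members of 1 small family of membrane proteins, and they lay at opposite ends of the comparison, at -4.14 and 5.65. Cmtm5, a membrane protein of the chemokine-like MARVEL family, differed by -4.18.

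Aggrecan did not follow the collagens. Acan, its core protein, read 0.41 in FZ, 0 in PZ, -0.44 in MZ, -1.87 in HZ and 0.86 in FCC, a difference of 0.85, so FZ was above MZ. Hapln1, which links aggrecan to hyaluronan, differed by -0.69, Ucma by 0.67 and Matn1 by -0.20. Fibin, the list member higher in FZ, differed by 3.18. Of 31 enzymes that build or sulfate proteoglycan chains, 1 was at least 1 higher and 1 at least 1 lower in FZ, with a median of 0.00. These were Hs3st6 (1.34) and Csgalnact1 (-1.65), which starts chondroitin sulfate chains. The list leaves out some related enzymes, of which 2 are named here after their values were seen. Chst5, a sulfotransferase, differed by 2.90 and 2.59, and Extl1, an exostosin-like enzyme, by -2.54 at 1 probe set.

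A few names among the 15 largest negative differences are not cartilage genes by name. The probe set listed for Hils1, a linker histone of spermatids, read -4.23 in FZ, 0 in PZ, 0.79 in MZ, -2.60 in HZ and 1.85 in FCC, a difference of -5.01 with FZ lowest, HZ next and FCC highest, as in Clec3a and Col9a1. In RefSeq's rat gene table (assembly GRCr8) Hils1 lies inside the span of Sgca, and which transcript the probe set measured was not tested. Smim5, a small membrane protein, read -2.46 in FZ, 1.77 in PZ, 0.64 in MZ, -1.39 in HZ and 0 in FCC, a difference of -3.09.

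Of 16 transcription factors of cartilage, 1 was at least 1 lower and 1 at least 1 higher in FZ, with a median of 0.06. Foxa2, a factor of chondrocyte hypertrophy, read -4.43 in FZ, 0 in PZ, 0.08 in MZ, -1.37 in HZ and 0.17 in FCC, a difference of -4.52. PZ, MZ and FCC lay within 0.2 of each other and FZ far below them. Zfp521, a zinc finger protein that restrains chondrocyte maturation, read 0.79 in FZ and -1.36 in MZ, a difference of 2.16. Mef2c, a further factor of hypertrophy, differed by -0.97.

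Among 22 genes of hypertrophy and mineralization, 6 were at least 1 lower in FZ and 1 at least 1 higher, with a median of -0.42. Col10a1 read -2.73 in FZ, -1.61 in PZ, 0.62 in MZ, 0.37 in HZ and 0 in FCC, a difference of -3.36, so the superficial zones were low and MZ and HZ close to each other. Smpd3, a sphingomyelinase needed for mineralization, differed by -1.51, Alpl, tissue non-specific alkaline phosphatase, by -1.47, Panx3, a channel of hypertrophic chondrocytes and osteoblasts, by -1.43 and Phex by -1.01. Lgals1 (galectin 1), at 1.0, was the member higher in FZ. Mmp13, the collagenase of hypertrophic cartilage, differed by -0.33 and Ibsp, bone sialoprotein, by -0.44.

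Ihh, the hedgehog ligand of prehypertrophic chondrocytes, read -1.22 in FZ, -0.45 in PZ, 1.23 in MZ, 0 in HZ and 1.81 in FCC, a difference of -2.45. Evc, a ciliary protein needed for the hedgehog response, lay the other way, at 1.55, and Gli1, a target of the pathway, differed by 0.87. Of 14 genes of hedgehog and PTHrP signalling, Evc was the 1 at least 1 higher in FZ and Ihh the 1 at least 1 lower, and the median was 0.11.

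Retinoic acid carriers differed as a pair. Crabp1, a cytoplasmic carrier of retinoic acid, read 4.89 in FZ, 2.51 in PZ, 0 in MZ, -2.56 in HZ and -2.32 in FCC, a difference of 4.89. Crabp2, which delivers retinoic acid to its nuclear receptor, read 3.24 in FZ, 1.78 in PZ, 0 in MZ, -0.33 in HZ and -0.07 in FCC, a difference of 3.24. Both were highest in FZ and second in PZ. Rbp4, the plasma carrier of retinol, differed by 2.21 and Rarres2 (chemerin) by 1.26, with FCC above FZ for both, at 3.07 and 2.71 against 1.81 and 0.95. Aldh1a2, which makes retinoic acid, and Rarres1 differed by -1.06 and -1.44. Cyp26b1, which degrades retinoic acid, differed by just under 1. These 4 higher and 2 lower were the members beyond 1 among 20 genes of retinoid transport and metabolism, with a median of 0.13.

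Of 20 genes of the insulin-like growth factor system, Igfbp6 was the 1 at least 1 higher in FZ and 0 were at least 1 lower, with a median of 0.36. Igf2 depended on the probe set. The highest of its 4 probe sets read 2.61 in FZ, 0 in PZ, -0.70 in MZ, -1.78 in HZ and 3.69 in FCC, a difference of 3.31, while the other 3 lay between -0.09 and 0. Igf1 and Igf2r, the receptor that clears IGF-II, differed by 0.80 and 0.97.

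Genes of Wnt signalling lay on both sides. Fzd8, Fzd1 and Fzd2, which bind Wnt at the membrane, differed by 2.32, 2.24 and 1.15, and Sfrp2, a secreted modulator, by 1.45. Frzb, a secreted Wnt antagonist of cartilage, read -1.83 in FZ, 0 in PZ, 0.99 in MZ, 0.00 in HZ and 0.55 in FCC at the probe set with the larger difference, -2.82, and its other probe set differed by -2.33. Wnt4 and Ccn6 differed by -1.37 and -1.74. Those 4 higher and 3 lower were among 36 genes with a median of -0.01. The ligand Wnt9a, named after its value was seen, differed by 2.33 at 1 probe set but was not among the 4. The other receptors of the list did not pass 1, with Fzd6 at 0.87, Fzd5 and Lrp5 at 0, Lrp6 at -0.04, Fzd4 at -0.20 and Fzd3 at -0.53. Dkk3, of a family of secreted Wnt antagonists, lay opposite to Frzb at 2 of its 4 probe sets, at 2.23 and 1.14, while the others were at -0.06 and -0.07 and the mean was 0.81.

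Of 41 genes of TGF-β and BMP signalling, 4 were at least 1 higher in FZ, 3 at least 1 lower, and the median was -0.04. Ltbp4, Ltbp2, Tgfbi (1.94), a matrix protein induced by TGF-β, and Inhba (1.07), a subunit of activin A, were higher. The antagonists Grem1 (-1.98), Bmp3 (-1.54) and Bambi (-1.11) were lower. Of 32 genes of FGF, PDGF and VEGF signalling, 0 were at least 1 higher and Pdgfa (-1.02) was the 1 at least 1 lower, with a median of -0.12. Among 37 metalloproteinases and inhibitors, Adamtsl4 (1.95) and Adamts4 (1.24), an aggrecanase, were higher, Mmp12 (-1.54), Adamtsl2 (-1.23) and Mmp9 (-1.21) were lower, and the median was -0.08. Adamts15, a relative left off this list and named after its value was seen, differed by 2.44 at 1 probe set.

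Several of the largest positive differences were in genes known from neurons. Bcl11b, a zinc finger transcription factor of neurons and T cells, read 4.31 in FZ, 3.83 in PZ, 0 in MZ, -0.11 in HZ and -0.47 in FCC, a difference of 4.31. Its other probe sets differed by 3.61 and 0.91, and in all 3 of them FZ and PZ were the highest arrays. Ntrk2, the receptor of brain-derived neurotrophic factor, read 2.82 in FZ, 0.66 in PZ, -1.32 in MZ, -2.01 in HZ and 0 in FCC, a difference of 4.14. A further probe set of Ntrk2 differed by 3.14 and the remaining 3 by 0.52, 0.51 and -0.05.

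Gap43, a protein of growing axons, differed by 3.97 at 1 probe set, with 2.21 in FZ and -1.76 in MZ, and by -0.02 at the other, where all arrays lay within 0.1 of 0. Ephb3, a receptor of membrane-bound ephrins, read 2.39 in FZ, 2.01 in PZ, -1.17 in MZ, -2.64 in HZ and 0 in FCC, a difference of 3.55. Efna5, a ligand, differed by 1.17 as the mean of 2.18 and 0.15 at its probe sets. With Ntrk2 (1.65 as the mean of its 5 probe sets), Ephb3 and Efna5 were the 3 of 18 genes of neurotrophin and ephrin signalling at least 1 higher in FZ. In this list 0 were at least 1 lower and the median was 0.06, and it too was drawn up after the values were seen. Markers of nerve did not move as a group. Of 18 genes of nerve and Schwann cells, Gap43 (1.98 as the mean of its probe sets), Prph (1.33), a neuronal filament, and S100b (1.12), which chondrocytes express too, were at least 1 higher in FZ and 0 at least 1 lower. Nefl, Nefm, L1cam and Mbp, of axons and myelin, lay between -0.24 and 0.00, and the median was 0.00.

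Aoc3, a vascular amine oxidase, read 1.4 in FZ, 0 in PZ, -2.63 in MZ, -2.05 in HZ and 0.96 in FCC, a difference of 4.03, and its other probe set differed by 0.22. Itgbl1, an integrin-beta-like protein, read 1.06 in FZ, 0 in PZ, -2.91 in MZ, -3.0 in HZ and 3.84 in FCC, a difference of 3.97 with FCC above FZ. Of 17 genes of smooth muscle and pericytes, Tagln (2.04), an actin-binding protein, Cspg4 (1.44), the proteoglycan NG2, and Itga8 (1.19) were at least 1 higher in FZ, 0 were at least 1 lower and the median was 0.45. In all 11 of the 17 lay above 0 and 4 below. Markers of pericytes were on both sides, since Cspg4 and Notch3 (0.22) lay above 0 and the 4 below it were Mcam, Rgs5, Kcnj8 and Abcc9, between -0.51 and -0.20.

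Genes of cholesterol synthesis were higher in FZ along most of the pathway. Of 19 measured, 9 were at least 1 higher and 0 at least 1 lower, with a median of 0.94, and 18 of the 19 lay above 0. Acat2, at the first step, differed by 1.43, Idi1 by 1.16, Fdps, which makes farnesyl diphosphate, by 1.26 and Sqle, squalene epoxidase, by 1.37. Of the late steps, Cyp51 differed by 1.39, Dhcr7 by 1.4, Hsd17b7 by 1.31, Sc5d by 1.27 and Tm7sf2 by 1.15. The lowest value was -0.06 for Ggps1, which leads from the pathway to protein prenylation, and Lss, which closes the sterol rings, differed by 0.06.

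In these genes MZ was close to the middle array and FZ above it. The median of the list was 0.85 in FZ, 0.19 in PZ, 0 in MZ, -0.33 in HZ and -0.22 in FCC. Sqle read 1.37 in FZ and between -0.80 and 0.03 on the other 4 arrays, whereas Dhcr7 read 1.4 in FZ and 1.08 in PZ. Of 18 further genes of sterol sensing and fatty acid synthesis that the same transcription factors (SREBPs) are known to drive or that regulate them, 3 were at least 1 higher in FZ, 0 at least 1 lower, and the median was 0.37. Scd, which desaturates stearate, read 1.92 in FZ, 0.01 in PZ, -1.34 in MZ, -2.03 in HZ and 0 in FCC, a difference of 3.26. Acss2, an acetyl-CoA synthetase, differed by 1.69 and Fads2, a fatty acid desaturase, by 1.33. The factors themselves, Srebf1 and Srebf2, differed by 0.06 and 0.37, and Insig1, which holds them back, by 0.28.

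**Figure D5:**
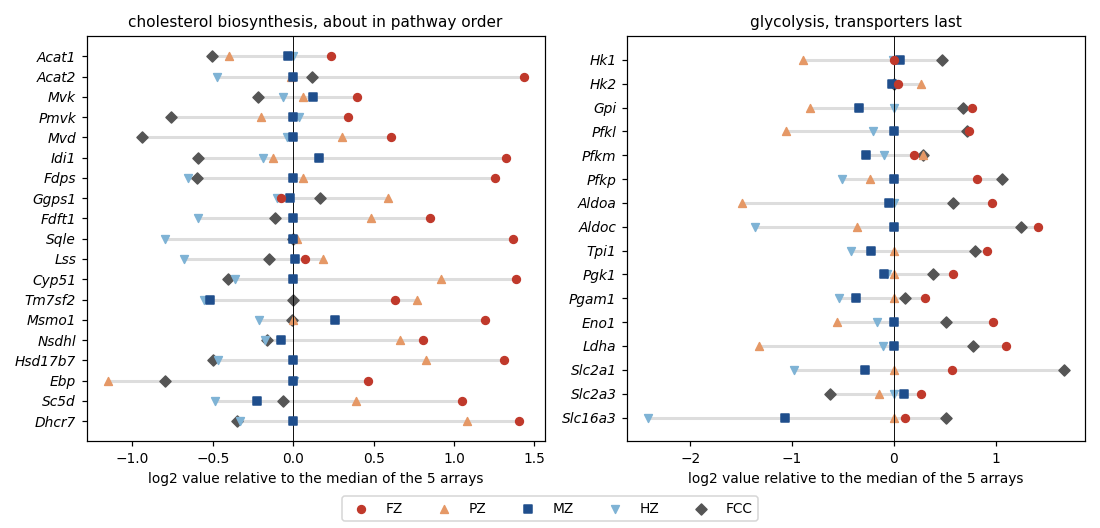
Log2 values relative to the median of the 5 arrays for genes of cholesterol biosynthesis, about in pathway order, and of glycolysis, with sugar and lactate transporters last. FZ (red circles) lies to the right of MZ (blue squares) in 18 of 19 genes on the left and 15 of 16 on the right; in glycolysis FCC (grey diamonds) lies near FZ in many genes.

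SREBPs bind sterol elements in promoters, next to factors such as NF-Y, which binds the CCAAT box. The 250 bases before the start site were taken from RefSeq (GRCr8) for the 16 of 19 cholesterol genes that its promoter table lists. CCAAT on either strand was present in 13 of the 16 (81.2%), against 34% of 33469 promoters of the same length, in 5 of the 8 listed among the genes at least 1 higher in FZ and in 8 of the 8 others. The form TCACNCCAC of a sterol element was present in 0 of the 16 on either strand, against 0.974% of all promoters. These are matches of letters in a window and no measure of binding. The 3 genes at least 1 higher in FZ with more than 1 CCAAT match are shown as examples of such a promoter, each 5′ to 3′ in the direction of the gene and ending at the base before the start site, with CCAAT or its complement ATTGG in capitals.
Hsd17b7, chr13:84722755-84723004, minus strand: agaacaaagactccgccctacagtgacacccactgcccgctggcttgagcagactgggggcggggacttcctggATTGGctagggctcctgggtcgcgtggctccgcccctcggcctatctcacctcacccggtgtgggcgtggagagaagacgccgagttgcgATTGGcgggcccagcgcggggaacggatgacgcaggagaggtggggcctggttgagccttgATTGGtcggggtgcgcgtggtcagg
Fdps, chr2:176804817-176805066, minus strand: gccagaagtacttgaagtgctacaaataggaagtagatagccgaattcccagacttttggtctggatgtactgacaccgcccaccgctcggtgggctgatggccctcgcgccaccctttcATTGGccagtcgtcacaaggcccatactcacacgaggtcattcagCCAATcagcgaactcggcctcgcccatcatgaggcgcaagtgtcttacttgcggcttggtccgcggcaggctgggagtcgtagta
Idi1, chr17:66547525-66547774, minus strand: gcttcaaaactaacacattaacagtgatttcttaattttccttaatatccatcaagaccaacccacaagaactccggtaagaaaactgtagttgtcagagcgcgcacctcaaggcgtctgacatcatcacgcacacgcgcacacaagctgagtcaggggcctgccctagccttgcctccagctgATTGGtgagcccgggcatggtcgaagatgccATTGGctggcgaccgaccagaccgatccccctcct
The number of matches did not follow the size of the difference. Acat2, Dhcr7 and Cyp51, the 3 with the largest difference among those listed, held 0 matches, while Mvk and Nsdhl held 5 each and differed by 0.27 and 0.89.

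Glycolysis showed a shift of similar size. Of 16 genes, 6 were at least 1 higher in FZ and 0 at least 1 lower, with a median of 0.83, and 15 lay above 0. Aldoc (1.41), Slc16a3 (1.18), a lactate exporter, Tpi1 (1.13), Gpi (1.11), Ldha (1.10) and Aldoa (1.02) were at least 1 higher. Aldoa read 0.97 in FZ, -1.5 in PZ, -0.05 in MZ, 0 in HZ and 0.59 in FCC, so PZ lay below MZ, unlike in most matrix genes. The list's median was 0.66 in FZ, -0.19 in PZ, -0.03 in MZ, -0.13 in HZ and 0.55 in FCC.

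Among 26 genes of the hypoxia response, 4 were at least 1 higher in FZ and 1 at least 1 lower, with a median of 0.21. Car9, a carbonic anhydrase induced by low oxygen, read 1.71 in FZ, 0.04 in PZ, -1.39 in MZ, -4.77 in HZ and 0 in FCC, a difference of 3.11. Egln3, an oxygen-sensing hydroxylase, read 2.11 in FZ, -0.49 in PZ, 0 in MZ, -0.49 in HZ and 2.78 in FCC, a difference of 2.11. Bnip3 (1.49) and Higd1a (1.4) were higher as well, and Hmox1, heme oxygenase, also abundant in macrophages, differed by -1.16. Vegfa and Hif1a differed by 0.21 and -0.17. Oxidative phosphorylation held 53 measured genes, of which 0 were at least 1 apart in either direction, with a median of -0.04.

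Genes of blood cells were higher in MZ. There were 6 lists, of erythroid cells, megakaryocytes, neutrophils, macrophages, lymphocytes and leukocytes in general. Of their 120 genes, 52 (43.3%) were at least 1 lower in FZ, against 2.75% of all named genes. The 1 at least 1 higher was Aqp1 (1.4), which other tissues express too. The median over these 120 genes was -0.04 in FZ, -0.30 in PZ, 0.54 in MZ, 0.78 in HZ and -0.09 in FCC. MZ and HZ, the deep zones, were the high arrays, with 42 and 46 of the genes at least 1 above the middle array, against 1 each in FZ and PZ and 0 in FCC. Of the 73 probe sets at least 2 lower in FZ, 14 belong to genes of these lists and 15 to genes of the 3 cartilage lists of matrix, hypertrophy and transcription factors. What share of all probe sets these lists hold was not counted, so the 14 and 15 are no measure of enrichment.

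The megakaryocyte and platelet list had the lowest median of the 6, at -1.38, with 10 of 18 genes at least 1 lower and 0 higher. Mmrn1, multimerin of platelet granules, read -0.15 in FZ, -0.37 in PZ, 2.67 in MZ, 0.41 in HZ and 0 in FCC, a difference of -2.82. MZ stood alone at the top for this gene, more than 2 above HZ. Tubb1 (-2.78), the tubulin of platelets, Plek (-2.63), Treml1 (-2.61) and Pf4 (-2.51), platelet factor 4, were all higher in MZ than in HZ.

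Erythroid genes were higher in HZ than in MZ, with medians of 0.99 and 0.56. Of 25, 14 were at least 1 lower in FZ and Aqp1 higher, with a median of -1.28. Car1, a carbonic anhydrase of red cells, read -0.86 in FZ, -0.75 in PZ, 1.73 in MZ, 3.13 in HZ and 0 in FCC, a difference of -2.58. Hemgn differed by -2.32, Klf1, the erythroid transcription factor, by -1.97, and Hbb, a globin chain, by -0.76. Neutrophil genes had a median of -1.08, with 7 of 13 at least 1 lower, and S100a9 and S100a8 differed by -2.07 and -2.02.

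Of leukocyte genes in general 9 of 22 were at least 1 lower in FZ (median -0.87), of macrophage genes 5 of 19 (median -0.57) and of lymphocyte genes 8 of 24 (median -0.47), and 0 were at least 1 higher in each. Serpinb10, a serine protease inhibitor of bone marrow cells, read -0.17 in FZ, -0.28 in PZ, 2.97 in MZ, 2.12 in HZ and 0 in FCC, a difference of -3.14 with MZ and HZ far above the other 3 arrays. Ptprc, the common leukocyte antigen CD45, differed by -0.63. How far blood cells in the captured MZ tissue enter the values of genes that blood cells share with chondrocytes was not tested.

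Vessel and bone genes lay on the same side, with smaller median differences than the platelet, erythroid and neutrophil lists. Of 22 endothelial genes, 4 were at least 1 lower in FZ and Aqp1 higher, with a median of -0.63, and Tek, the angiopoietin receptor, differed by -1.66, Vwf by -1.43 and Cldn5 by -1.38, while Pecam1 differed by -0.07. Of 13 osteoclast genes, Mmp9 and Car2 were at least 1 lower (median -0.49), and Acp5 and Ctsk, which define osteoclasts, differed by -0.73 and -0.28. Of 17 genes of osteoblasts and osteocytes, Alpl, Phex and Dlx3 (-1.10) were at least 1 lower and Postn higher (median -0.17). Bglap, osteocalcin, differed by -0.17.

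Of 30 skeletal muscle genes, Eno3 (2.70) and Myh2 (2.02) were at least 1 higher in FZ and Tnni2 (-1.85) lower, with a median of 0.00, and Ckm and Acta1 differed by -0.30 and -0.50. Of 16 adipocyte genes, Cfd (-1.21), Car3 (-1.15) and Pparg (-1.10) were at least 1 lower, 0 at least 1 higher, and Adipoq differed by -0.02 (median -0.16). Of 12 genes of the joint surface and synovial lining, Thy1 (1.11), a marker of fibroblasts, was higher, Clu (-1.37), Vcam1 (-1.28) and Cd55 (-1.15) were lower, and the median was -0.18. Of 23 genes of craniofacial patterning, Eya1 (1.59), Prrx2 (1.13) and Dlx1 (1.09) were higher and Dlx3 lower, with a median of -0.02. Eya1 read 1.59 in FZ and 1.67 in PZ and at most 0 on the other arrays.

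Cell division and general cell functions differed little. Of 31 cell cycle genes, 42 ribosomal protein genes and 10 reference genes, 0 were at least 1 apart in either direction, with medians of 0.08, -0.01 and -0.06. On the control probe sets, those at the 3′ and 5′ ends of beta-actin differed by 0.24 and 0.48 and those of GAPDH by 0.70 and 0.76, both higher in FZ, so the ends of each transcript differed alike to within 0.25. The 5S ribosomal RNA control read -0.44 in FZ and 0.93 in MZ, a difference of -1.37. The 18 hybridization controls, transcripts added to every sample, averaged -0.15 in FZ and -0.02 in MZ, and a shift of the arrays to equal means of these would move the median of all probe sets from -0.0050 to 0.12.

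Probe sets of 1 gene give the only repeated measure that the data hold, and it is not a replicate error. Among 4525 genes measured by 2 or more of them, the SD of FZ minus MZ between them had a median of 0.16. For genes with a probe set past 2 it was often larger. Of 59 such genes higher in FZ, 12 had every probe set past 2, 34 had at least 1 within 0.5 of 0, and 0 had 1 at least 1 in the other direction. Of 8 such genes lower in FZ, Col2a1 and Frzb had every probe set past 2 and 5 had at least 1 within 0.5 of 0. Which of these probe sets were near background cannot be seen in values without a level.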

How the data were processed

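Expression was measured in laser-captured cells on Affymetrix rat arrays after 2 cycles of linear amplification, with 1 array for each of 5 groups. MAS5 and RMA are listed, with no version, in the submitters' processing notes, and the study describes quantile normalization. The authors deposited log2 values with a baseline step, since the median of each of 31099 probe sets over the 5 arrays is 0. Quantile normalization sets equal distributions, so a shift common to most genes cannot be seen. For the probe sets, a build is not given in the sources at hand.

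FZ minus MZ was computed with pandas 2.3.3 and numpy 2.4.6 under Python 3.11.15; plots used matplotlib 3.10.9. The thresholds were a difference of 2 for probe sets and of 1 for genes of a list. Symbols came from the platform annotation, updated through RefSeq's GRCr8 table by gene ID (20764 probe sets) or accession (2), with 66 kept as given; 436 probe sets carry several symbols and 9780 are not listed, and neither kind was named. Named genes were the 15 with the largest difference in each direction, by the probe set with the largest difference, and list members. A few others were named after their values were seen. Members and lists, 40 in all, were chosen with earlier results of these data known, 3 of them, elastic fibre, neurotrophin and collagen chains, after these values were seen. The functions were tested on simulated data. Alternatives were array centring, hybridization controls, other thresholds and other ways to combine probe sets. Protein sequences were not used here.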

Additional observations from a re-analysis of the deposited data

How the results depend on the processing

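The 192 probe sets higher and 73 lower in FZ depended on the size threshold, as counts at other thresholds must. They were 727 and 773 at 1, 396 and 262 at 1.4, and 18 and 11 at 4. With 1 value per gene 111 genes were higher and 46 lower. The counts stayed within 1.5 times under array median centring, the shift to equal hybridization controls (230 and 57), control probe sets counted and, added after the data were seen, probe sets with 1 symbol only or without genes of the blood cell lists (191 and 59). The medians of the 40 lists moved, in 157 recomputed values, by less than 0.16, the median SD between probe sets of a gene. In 3 they moved by more, all with the most variable probe set per gene, 0.54 for the insulin-like growth factor system, -0.78 for macrophages and -0.80 for endothelium. Array median centring left all counts and list medians as they were, and the hybridization shift added the same 0.125 to each list median. Neither could move a list median past that SD, so their values could only count as stable. None of the list medians or named genes past that SD changed sign under the settings tried. With the mean of all probe sets, 8 of the 30 named genes moved by more than that SD. Among them were Ntrk2 to 1.65, Gap43 to 1.98, Aoc3 to 2.13, Bcl11b to 2.94 and Col2a1 to -2.98. Most of the 30 have 1 probe set and could not move. Of those with several, only Dpt (4.71) and Igfbp6 (4.50) moved by less. No paired analysis was possible because each group has 1 array. No array could be left out for the same reason, and no value has a replicate error. The deposited values hold no signal over background, so a low probe set cannot be told from an absent one.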

Other observations

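Of the 12 genes higher in FZ with every probe set past 2, some belong to no list fixed for this comparison and are named here after their values were seen. Cdh13, a cadherin anchored to the membrane by a lipid, had 3 probe sets that differed by 2.94, 2.81 and 2.58, and their mean was 2.51 in FZ, 1.78 in PZ, -0.27 in MZ, -0.22 in HZ and -0.39 in FCC. Plxdc1, a membrane protein with a plexin-like domain, differed by 3.51 and 3.48 and Pcdh20, a protocadherin, by 2.25 and 2.21. For Plxdc1 PZ was second to FZ, and for Pcdh20 the mean was 2.23 in FZ and 2.35 in PZ. Chst5, a sulfotransferase, differed by 2.90 and 2.59. Tspan2, a tetraspanin, differed by 3.52 and 3.46 and had its mean at 0.95 in FZ and -2.55 in MZ, so that it was low in MZ rather than high in FZ. Olfml1 differed by 3.87 and 2.35.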
